A study of Mus musculus with 8 samples.

Results

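The genes described here are 10 genes of natural killer (NK) cells and cytotoxic lymphocytes, chosen by name and found by their Ensembl identifiers among the 55416 gene identifiers counted in mouse lung. They are the cytokine Ifng, the granule genes Gzma, Gzmb, Prf1 and Nkg7, the receptors Klrb1c, Ncr1 and Klrd1, the transcription factor Eomes and the interleukin-12 receptor chain Il12rb2. Bulk RNA was sequenced from a lung lobe of female C57BL/6J mice aged 6 to 8 weeks, and the 8 libraries held 19061949 to 20908608 counts. The 3 control mice (numbers 1, 2 and 4) received the solvent DMSO and then saline. The 3 LPS mice (numbers 1, 6 and 7) received bacterial lipopolysaccharide at 35 mg/kg. The 2 dual-treated mice (numbers 2 and 5) received YW3-56, an inhibitor of peptidylarginine deiminases, at 10 mg/kg in DMSO 30 min before the same dose of LPS. Lungs were taken about 24 h after LPS. No DMSO injection is described for the LPS mice and no group received YW3-56 alone, so effects of the solvent and of YW3-56 without LPS cannot be told apart from those of the combination.

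NK cells kill infected or transformed cells by releasing granules that hold the pore-forming protein perforin and the serine proteases called granzymes, and they secrete interferon-gamma (IFN-γ). Interleukin-12 from phagocytes, with interleukin-18 and interleukin-15, is a main trigger of IFN-γ in these cells, which patrol the lung vasculature in large numbers. Killing is set by a balance of activating and inhibitory receptors, many of them encoded in the NK gene complex on mouse chromosome 6.

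The lung markers Scgb1a1, Sftpc and Sftpb were present at high level in every library, and the 8 lung markers summed to 42297 to 94035 TMM-normalized CPM, counts scaled to a common effective library size. LPS mice 6 and 7 stood apart from LPS mouse 1. Their 9 measured squamous epithelium markers summed to 713 and 2052 CPM against 1.25 CPM in LPS mouse 1, and Krt13 led the list by mean level. The 12 skeletal muscle markers, led by Acta1, summed to 560 and 1422 CPM in these mice and to 31.6 CPM in LPS mouse 1. Where values are given with LPS mouse 1 alone, it was the only LPS library and was assumed to vary like the other groups.

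A gene was called higher or lower when edgeR's quasi-likelihood test gave a Benjamini-Hochberg adjusted p under 0.05 over all 18560 tested genes and the fold change was over 2. In LPS against control lungs, 5 of the 10 members were called higher, where 17.9% of all tested genes were, and 2 were called lower, where 21.3% were. In dual-treated against control lungs, 3 members were called higher and 0 lower, beside 5.25% and 1.90% of all genes. DESeq2 also called 0 members lower there, as did the rule of fold change over 2 with an unadjusted p under 0.05. In dual-treated against LPS lungs, 3 members were called higher and 2 lower, beside 19.8% and 14.0%. The groups did not overlap for 7, 4 and 5 members in these comparisons, where 72.0%, 52.2% and 70.8% of all tested genes did not. The comparisons share libraries, so their counts are not independent of one another. The median log2 fold change of the members was 1.49, 1.23 and 0.42, beside -0.01, 0.00 and 0.06 for all tested genes. With LPS mouse 1 alone the members' median was 2.2 for LPS minus control and 0.02 for dual-treated minus LPS, and with library size only it was 1.18 and 0.76. All 10 members passed the expression filter, but Ifng and Il12rb2 reached its cutoff in no control or dual-treated library, Klrd1 in no LPS library, and Ncr1 in 1 control, 0 LPS and 2 dual-treated libraries, so the filter kept these genes for groups where they were higher. The counts and medians are therefore descriptions. With no filter on low counts Ifng and Il12rb2 were called in LPS minus control (log2 fold change 4.75 and 2.74) and in dual-treated minus LPS (-4.53 and -2.74), as in the filtered data. Klrd1 and Ncr1 were also called with no filter, at -3.91 and -2.21 in LPS minus control and 3.78 and 4.14 in dual-treated minus LPS.

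**Figure D1:**
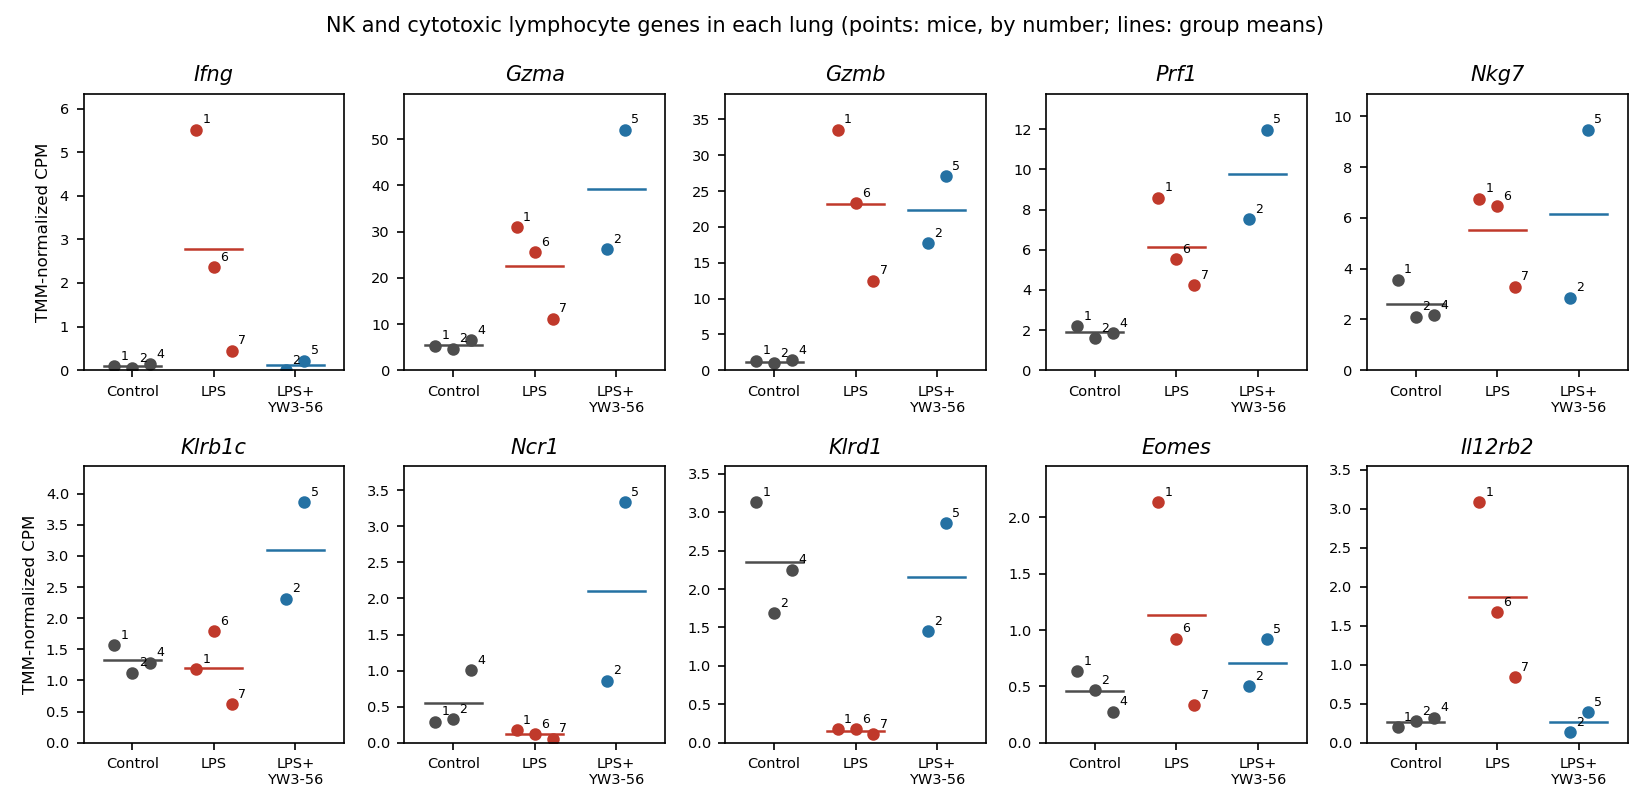
TMM-normalized CPM of the 10 members in each lung, with points for mice, labelled by mouse number, lines for group means and a linear axis from 0 in each panel. Klrd1 lay between 1.69 and 3.13 CPM in the control lungs and between 0.112 and 0.178 CPM in the LPS lungs, while Ifng lay at or under 0.22 CPM in every control and dual-treated lung.

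Ifng encodes IFN-γ, which activates macrophages and induces antigen presentation. Its raw counts were 2, 1 and 3 in control mice 1, 2 and 4, then 93, 41 and 8 in LPS mice 1, 6 and 7, and 0 and 5 in dual-treated mice 2 and 5. In CPM these were 0.0979, 0.0469 and 0.138 in control lungs, 5.52, 2.37 and 0.447 in LPS lungs, and 0 and 0.22 in dual-treated lungs. Every LPS lung lay above every other lung, but the LPS mice were spread widely, with mouse 7 far below mouse 1. The pooled LPS counts were 28.8 times those of controls at equal depth, with an exact (Clopper-Pearson) 95% interval of 12.9 to 79.9 that covers counting error only. Against the dual-treated lungs the ratio was 24.4 (10.2 to 76.4). Of the 142 LPS counts behind both ratios, 93 came from LPS mouse 1. The edgeR log2 fold change was 4.79 (SE 1.05, adjusted p = 0.00283) for LPS minus control and -4.57 (SE 1.21, adjusted p = 0.00935) for dual-treated minus LPS. Without LPS mouse 1 or without LPS mouse 6 the gene no longer passed the expression filter and was not tested, nor was it for LPS minus control with only those 2 groups in the fit. The log2 fold change for dual-treated minus LPS was -3.63 without dual-treated mouse 2 (adjusted p = 0.047) and -8.76 without mouse 5, where the remaining count of 0 makes the fitted value depend on the prior count. With LPS mouse 1 alone the log2 fold changes were 5.79 for LPS minus control and -5.57 for dual-treated minus LPS. For the count of 0 in dual-treated mouse 2, a floor of 3 counts corresponds to 0.136 CPM. This floor was fixed beforehand and is not a computed interval.

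Il12rb2 encodes the signalling chain of the interleukin-12 receptor. It stood at 0.196, 0.282 and 0.322 CPM in control lungs, 3.09, 1.67 and 0.837 CPM in LPS lungs, and 0.136 and 0.395 CPM in dual-treated lungs. The LPS lungs did not overlap either other group, and their order by mouse was that of Ifng. Il12rb2 rose by 2.77 on the log2 scale in LPS over control lungs (SE 0.60, adjusted p = 0.00265 by edgeR) and was lower in dual-treated than LPS lungs by -2.77 (SE 0.70, adjusted p = 0.00724), or by -3.73 without dual-treated mouse 5 and -2.24 without mouse 2 (adjusted p = 0.0479). With LPS mouse 1 alone these were 3.51 and -3.51. Ifng and Il12rb2 are also among genes that the study picked from these libraries, so their direction is not independent evidence. Of the 3794 exon bases of Il12rb2, 1519 (40%) are shared with Serbp1 on the opposite strand, and the strand setting of the counting is not given in the sources used here. Serbp1, looked up for this overlap, averaged 171, 245 and 175 CPM in control, LPS and dual-treated lungs, so part of the Il12rb2 count may belong to it. Ifng shares 336 of its 1295 exon bases (25.9%) with Gm49751 on the same strand, which had 0 to 4 counts per library. Klrb1c shares 413 of 3194 (12.9%) with Gm44511 on the same strand, which had 0 counts in every library. Eomes shares 430 of 4155 (10.3%) with Gm33460 and 192 (4.62%) with Gm33408, both on the opposite strand, and the other members share none. How reads over shared bases were assigned is not given in the sources used here.

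Of the granule genes, Gzmb, Gzma and Prf1 followed another pattern, high in both groups that received LPS. Gzmb, a granzyme that triggers apoptosis by cleaving after aspartate, stood at 1.32, 0.939 and 1.38 CPM in control lungs, 33.6, 23.3 and 12.5 CPM in LPS lungs, and 17.7 and 27.0 CPM in dual-treated lungs. Both treated groups lay wholly above the controls and overlapped each other. Gzmb was 19.0-fold higher in LPS than control lungs (log2 fold change 4.25, SE 0.39, adjusted p = 1.24e-05) and 18.4-fold higher in dual-treated than control lungs (4.20, SE 0.41, adjusted p = 0.000243), both by edgeR. Dual-treated minus LPS was -0.05 (SE 0.35), and the sign turned with library size only and with upper quartile scaling.

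Gzma, a tryptase and the most abundant member by mean CPM, read 5.33, 4.69 and 6.53 CPM in control lungs, 30.9, 25.5 and 11.2 CPM in LPS lungs, and 26.2 and 52.1 CPM in dual-treated lungs. All treated lungs lay above all controls, and the single highest value was that of dual-treated mouse 5. The log2 fold change was 2.03 (SE 0.38, adjusted p = 0.00114) for LPS and 2.82 (SE 0.41, adjusted p = 0.00201) for dual treatment against control in edgeR, the latter 2.21 without dual-treated mouse 5. The difference between the treated groups was 0.80 (SE 0.39, adjusted p = 0.103) and was called only with library size alone as scaling, without LPS mouse 1 or without dual-treated mouse 2. It was 0.20 without dual-treated mouse 5 and 0.33 with LPS mouse 1 alone.

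Prf1, which encodes perforin, read 2.2, 1.6 and 1.84 CPM in control lungs, 8.60, 5.54 and 4.24 CPM in LPS lungs, and 7.53 and 12.0 CPM in dual-treated lungs. Again no treated lung overlapped the controls. Prf1 was 3.25-fold higher with LPS (adjusted p = 0.00101) and 5.19-fold higher with dual treatment (adjusted p = 0.00178), both against control in edgeR. Nkg7, a granule membrane protein needed for efficient granule release, read 3.57, 2.11 and 2.16 CPM in control lungs, 6.76, 6.47 and 3.29 CPM in LPS lungs, and 2.86 and 9.48 CPM in dual-treated lungs. Its groups overlapped in every comparison, and with all libraries and the expression filter edgeR called it in none of them. For LPS minus control the adjusted p was 0.0625 in edgeR, while DESeq2 called it higher (log2 fold change 1.11, adjusted p = 0.025). In edgeR it was called there without LPS mouse 7 (0.0301), without dual-treated mouse 2 (0.0177) or 5 (0.0199), with no filter on low counts (0.0128) and with only the 2 groups in the fit (0.0163). For dual-treated minus control it was called with no filter (0.0222) and without dual-treated mouse 2 (0.0342), while the log2 fold change was 0.10 without mouse 5.

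The proportions of the granule transcripts differed within lungs. The ratio of Gzmb to Gzma counts was 0.248, 0.20 and 0.211 in control mice 1, 2 and 4, then 1.09, 0.914 and 1.12 in LPS mice 1, 6 and 7, and 0.676 and 0.519 in dual-treated mice 2 and 5. The 3 groups did not overlap in this ratio, which was not tested and does not depend on the scaling of the libraries. Per kb of merged exon, Gzma led the members in control lungs at a mean of 3.57 CPM per kb, followed by Nkg7 at 2.85 and Klrd1 at 1.77. In LPS lungs Gzmb (16.1 CPM per kb) and Gzma (14.6) stood first and did not differ beyond their spread, and Klrd1 was at 0.116.

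The receptors moved differently from Gzmb, Gzma and Prf1. Klrd1 encodes CD94, which pairs with NKG2 proteins to form receptors for the nonclassical class I molecule Qa-1. Its counts were 64, 36 and 49 in control lungs, 3, 3 and 2 in LPS lungs, and 32 and 65 in dual-treated lungs. In CPM these were 3.13, 1.69 and 2.25, then 0.178, 0.173 and 0.112, and then 1.45 and 2.85. The LPS lungs were far below all others, and the control and dual-treated lungs overlapped. Pooled counts were 15.3 times higher in control than LPS lungs (exact 95% interval 7.56 to 36.0, counting error only) and 14.1 times higher in dual-treated than LPS lungs (6.87 to 33.6). The edgeR log2 fold change was -3.88 (SE 0.49, adjusted p = 8.52e-05) for LPS minus control and 3.76 (SE 0.51, adjusted p = 0.000228) for dual-treated minus LPS. Klrd1 kept both calls in every alternative that tested it, LPS mouse 1 alone included, and the latter difference was 3.16 without dual-treated mouse 5.

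Ncr1 encodes NKp46, an activating receptor that marks NK cells and other group 1 innate lymphocytes in mice. Its counts were 6, 7 and 22 in control lungs, 3, 2 and 1 in LPS lungs, and 19 and 76 in dual-treated lungs. The LPS lungs lay below all others, and control mouse 4 lay above dual-treated mouse 2 in CPM. Dual-treated minus control was 1.93 (SE 0.69, adjusted p = 0.0882 by edgeR) and was not called. It was called with no filter on low counts and by fold change over 2 with an unadjusted p. Pooled counts were 4.79 times higher in control than LPS lungs (exact 95% interval 1.99 to 13.9, counting error only and not the spread between mice) and 18.4 times higher in dual-treated than LPS lungs (8.15 to 51.4). The lower call in LPS (log2 fold change -2.18, SE 0.86, adjusted p = 0.0464 by edgeR) was lost without control mouse 4 (-1.38, adjusted p = 0.198). It was also lost without LPS mouse 1, 6 or 7, at -2.59, -2.18 and -1.85 (adjusted p of 0.0643 to 0.131 by edgeR). With LPS mouse 1 alone the call was lost too, at -1.58. The higher call in dual-treated over LPS lungs (4.11, SE 0.84, adjusted p = 0.00238) was lost only with LPS mouse 1 alone among the fits that tested the gene (3.51, adjusted p = 0.0589), and stood at 2.81 without dual-treated mouse 5 and 4.75 without mouse 2.

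Klrb1c encodes NK1.1, the antigen by which NK cells are recognised in C57BL/6 mice. It read 1.57, 1.13 and 1.29 CPM in control lungs, 1.19, 1.79 and 0.614 CPM in LPS lungs, and 2.31 and 3.86 CPM in dual-treated lungs. Control and LPS lungs overlapped, and both dual-treated lungs lay above all others. Klrb1c was called higher in dual-treated than LPS lungs (2.58-fold, log2 SE 0.44, adjusted p = 0.0234 by edgeR), a log2 fold change of 1.37. The call was lost without dual-treated mouse 5 (0.92, adjusted p = 0.195), with only the 2 groups in the fit (1.35, adjusted p = 0.054) and with LPS mouse 1 alone (1.37, adjusted p = 0.0552). Against control lungs the dual-treated lungs were not called (0.0873), but were without LPS mouse 7 (0.0422), with only the 2 groups in the fit (0.0386) and with LPS mouse 1 alone (0.0447). Eomes, a T-box factor needed for NK cell maturation, read 0.636, 0.469 and 0.276 CPM in control lungs, 2.14, 0.924 and 0.335 CPM in LPS lungs, and 0.499 and 0.922 CPM in dual-treated lungs. Its groups overlapped in every comparison and no difference was called with all libraries. LPS minus control was 1.28 (adjusted p = 0.112 by edgeR) and fell to 0.45 without LPS mouse 1 (adjusted p = 0.549), and it was called without LPS mouse 7 (1.73, adjusted p = 0.0228 by edgeR) and with LPS mouse 1 alone (2.21, adjusted p = 0.0167).

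In bulk lung, fewer cells of a type and less RNA per cell cannot be told apart, so none of these levels is a cell number. Within the treated groups most members were high or low in the same mouse. All 10 were higher in dual-treated mouse 5 than in mouse 2, where 51.5% of all tested genes were. All 10 were higher in LPS mouse 1 than in mouse 7, and all 10 in mouse 6 than in mouse 7, beside 53.0% and 48.4% of all genes, and 9 of 10 were higher in LPS mouse 1 than in mouse 6, beside 53.9%. Among the controls 8 were higher in mouse 1 than in mouse 2 and 9 in mouse 4 than in mouse 2, beside 49.5% and 49.2%, while mice 1 and 4 split 5 to 5. LPS mouse 7 was also the library with the highest squamous and muscle marker sums, whose part in its low member levels was not tested.

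Klrd1 lies in the NK gene complex, where 25 protein-coding Klr genes are annotated between positions 128586190 and 131224330 of chromosome 6 (GRCm39), a span of 2638 kb. Of these, 14 were tested. In LPS against control lungs Klrk1, which encodes the activating receptor NKG2D, was the only one called higher and Klrd1 the only one called lower. Of all tested genes 17.9% were called higher and 21.3% lower there. In dual-treated against LPS lungs Klrb1c, Klrd1, Klra17, Klra8 and Klra2 were called higher and Klrk1 and Klrb1b lower. Beside these stand 19.8% and 14.0% of all tested genes. Klra17 reached the filter's cutoff in 0 control, 0 LPS and 2 dual-treated libraries, so it was tested only for the group where it was high. Of the 16 tested genes in the list of NK gene complex receptors, which holds no member, 2 were called higher and 0 lower by edgeR in LPS against control lungs. Between dual-treated and LPS lungs 3 were higher and 3 lower, which became 5 and 1 with library size only and 1 and 4 with LPS mouse 1 alone. A partner of CD94 is encoded by Klrc1, named here after its values were seen, and its counts were 17, 10 and 10 in control lungs, 16, 13 and 8 in LPS lungs, and 5 and 23 in dual-treated lungs. The ratio of Klrd1 to Klrc1 counts was thus 3.76, 3.60 and 4.90 in control lungs, 0.188, 0.231 and 0.25 in LPS lungs, and 6.40 and 2.83 in dual-treated lungs. Klr genes are close relatives, and how the counting treated reads that match several of them is not given in the sources used here.

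**Figure D2:**
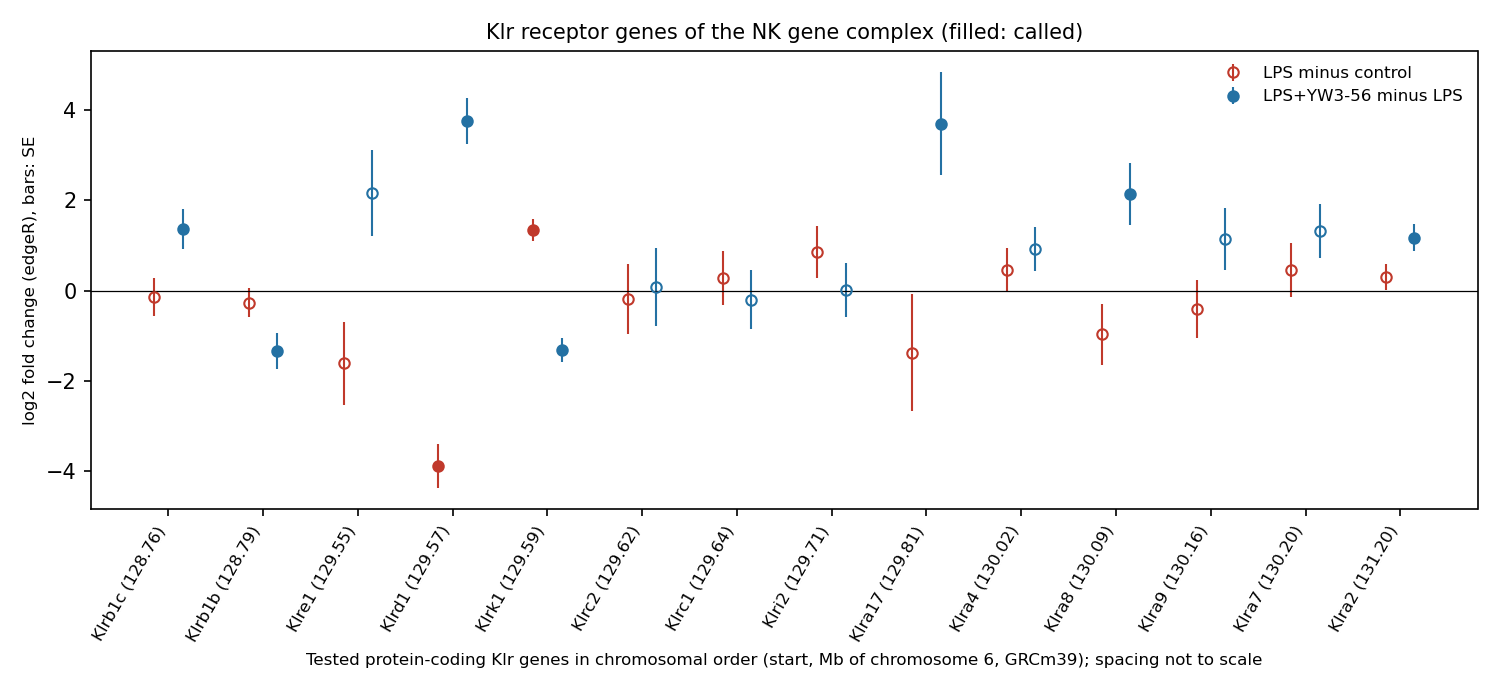
Log2 fold change (edgeR, bars for SE) of the 14 tested protein-coding Klr genes in chromosomal order, with red for LPS minus control, blue for dual-treated minus LPS, and filled points for called genes. Klrd1 lies at -3.88 and 3.76 and its neighbour Klrk1 at 1.34 and -1.32, while Klra17, at lower counts, reaches 3.70 for dual-treated minus LPS.

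Lists named for NK and cytotoxic functions were described in the same way. Which cells of the lung gave their RNA was not tested, and the name of a list does not give it. Beside the calls of each list stand the shares of all tested genes. These were 17.9% higher and 21.3% lower in LPS against control lungs. They were 5.25% and 1.90% in dual-treated against control lungs, and 19.8% and 14.0% in dual-treated against LPS lungs. Of 8 other granzymes, Gzmm was the only one tested, and it was not called in any comparison. Of 15 measured genes of granule release and death ligands, 5 were called higher and 4 lower in LPS against control lungs. The granule proteoglycan gene Srgn rose most (log2 fold change 2.88, adjusted p = 9.51e-07 by edgeR), and Serpinb6b had the lowest value at -1.78 (adjusted p = 1.90e-06). Unc13d and Rab27a, both needed for granule docking and priming, also fell, at -1.65 and -1.34. In the same list Stx11 was called higher, at 1.80, and Stxbp2 was not called, at -0.05. When dual-treated lungs were set against LPS lungs, 4 of these genes were called higher, Unc13d with 1.89, and 2 lower, or 6 and 1 with library size only.

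Among 14 other NK receptors, 6 were called higher and 2 lower in LPS against control lungs, led by Crtam, an adhesion receptor of activated lymphocytes, at 5.07 on the log2 scale (adjusted p = 5.3e-05 by edgeR). Crtam counts were 11, 10 and 0 in control lungs, 221, 166 and 204 in LPS lungs, and 3 and 5 in dual-treated lungs. The lowest was Cd226 at -2.07, which was also lower in dual-treated than control lungs at -1.93. Of 16 adaptors and kinases 6 were called higher with LPS and 7 with dual treatment, each against control, and none lower in either by edgeR with TMM scaling. Between dual-treated and LPS lungs 1 was higher and 3 lower, or 5 and 3 with library size only and 1 and 6 with LPS mouse 1 alone. The most abundant was Fcer1g, a signalling chain that NK cells share with myeloid cells. Of 13 tested NK transcription factors 7 were called higher and 2 lower in LPS lungs, or 3 and 2 with library size only, with Nfil3, needed for NK cell development, highest at 4.09 and Gata3 lowest at -2.24. Nfil3 was lower in dual-treated than LPS lungs at -3.93.

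The cytokines upstream of Ifng and its targets were measured in the same lungs. Of 6 tested inducers 4 were called higher in LPS than control lungs and 3 lower in dual-treated than LPS lungs (5 lower with LPS mouse 1 alone), with Il23a at 4.01 and -5.39. The study picked Il12a, Il15 and Il23a, the receptor chains Il2rb and Il15ra, and the chemokines Ccl3, Ccl4 and Ccl5 from these libraries, so the directions of these genes in the lists are not independent evidence. The interleukin-12 subunit gene Il12b was not tested, with 13, 4 and 8 counts in control lungs, 7, 1 and 1 in LPS lungs, and 0 and 1 in dual-treated lungs. Of 17 receptor and signalling genes 11 were called higher and 1 lower in LPS lungs, and 1 was higher and 8 lower in dual-treated than LPS lungs, or 4 and 7 with library size only and 0 and 7 with LPS mouse 1 alone. Il18rap, a chain of the interleukin-18 receptor, was highest at 4.09 and then -2.38.

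Of 22 genes of the IFN-γ receptor and its targets, 18 were called higher and none lower by edgeR in LPS lungs, with a median log2 fold change of 4.10. Cxcl9, a chemokine that recruits CXCR3-bearing lymphocytes, rose most. Its counts were 14, 14 and 28 in control lungs, 16221, 13234 and 11012 in LPS lungs, and 599 and 236 in dual-treated lungs. Between dual-treated and LPS lungs, 17 of these 22 were called lower in the former (median -3.24) and 0 higher, and 17 were lower and 0 higher in each scaling tried and with LPS mouse 1 alone. Many of these genes also answer to type I interferon, and the study picked genes of this kind from these libraries, so the direction of this list is not independent evidence.

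Of 15 tested trafficking genes 6 were called higher and 6 lower in LPS than control lungs, or 6 and 3 with LPS mouse 1 alone and 5 and 8 with library size only. Between dual-treated and LPS lungs 5 were higher and 3 lower, or 8 and 3 with library size only. In LPS against control lungs Ccl5 was highest at 4.32 and Ccr2 lowest at -3.19. S1pr5, a receptor for egress of NK cells into blood, had 28, 39 and 47 counts in control lungs, 5, 4 and 8 in LPS lungs, and 24 and 111 in dual-treated lungs, and Cx3cr1 had 127, 130 and 146, then 21, 13 and 2, and then 39 and 462. Both were called lower with LPS and higher in dual-treated than LPS lungs by edgeR. Most dual-treated counts of both came from mouse 5, and fits without it are not given for these genes. In mouse 2 the counts of 24 and 39 lay under those of every control lung. Of 12 tested ligands of NK receptors 4 were called higher and 1, Cd48, lower in LPS lungs, the latter not called with LPS mouse 1 alone.

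Markers of other cell types were measured in the same lungs, and their part in these results was not tested. The 8 neutrophil markers, led by S100a9, summed to 128 to 231 CPM in control lungs, 1915 to 3059 CPM in LPS lungs and 1800 and 2483 CPM in dual-treated lungs. The 7 pan-leukocyte genes, led by Coro1a, summed to 330 to 424, 698 to 1028 and 1050 and 1402 CPM. The 20 T cell markers, led by Tcf7, summed to 61.5 to 70.6 CPM in control lungs, 67.3 to 109.9 CPM in LPS lungs and 40.2 and 37.2 CPM in dual-treated lungs, with Cd3d, Cd3e, Cd3g, Cd4 and Cd8a detected in every library. Of these T cell markers 2 were called higher and 2 lower with LPS, or 2 and 4 with library size only and 4 and 0 with LPS mouse 1 alone, and 7 were lower in dual-treated than LPS lungs. Of 10 B cell markers 1 was called higher and 5 lower in LPS than control lungs, and 5 were higher (3 with LPS mouse 1 alone) and 1 lower in dual-treated than LPS lungs. The B cell markers summed to 59.4 to 60.7 CPM in control lungs and 33.5 to 51.2 CPM in LPS lungs. In dual-treated mice 2 and 5 they summed to 95.0 and 42.7 CPM, the latter within the LPS range. Of 10 markers of ILC1 and tissue-resident lymphocytes 1 was called higher and 5 lower with LPS. Of 7 tested mast cell and basophil markers 2 were called higher and 2 lower with LPS (median log2 fold change -0.11). The median was -0.77 with LPS mouse 1 alone. Hdc, the most abundant, read 44.3 to 61.8 CPM in control lungs and 362 to 394 CPM in LPS lungs. The rest of the list summed to 190 to 216 CPM in control lungs and 61.5 to 68.3 CPM in LPS lungs. Among the mast cell and basophil markers, the basophil protease gene Mcpt8 had 55, 15 and 14 counts in LPS lungs and 2, 0 and 0 in control lungs. Of 6 tested plasmacytoid dendritic cell markers 2 were called higher and 0 lower with LPS. Between dual-treated and LPS lungs 0 of them were higher and 3 lower.

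Pattern likeness was measured as the root mean square difference of centred log2 CPM over the 8 libraries. Within the members, Gzma and Prf1 were the most alike pair (0.31), and Ifng and Il12rb2 differed by 0.73. Outside them, only genes with a mean of at least 1 CPM were searched. The closest of these to Gzma were Ifi27l2a, Ncf4 and Fgr. Gzmb was closest to Wfdc17, Ccl12 and Wfdc21. Klrd1 was closest to Gm4956, Pknox2 and Cbx8, at 0.21 to 0.24, and Il12rb2 to 6430571L13Rik, Dusp5 and Trim15. The measure says nothing of shared function or control.

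The 250 bases before the annotated start were in the RefSeq promoter table (GRCm38.p6) for 9 of the 10 members, with no entry for Klrd1. Searched on both strands were the T-box letters GGTGTGA, the RUNX letters TGTGGTT, the GAS letters TTCNNNGAA bound by STAT factors, and the AP-1 letters TGANTCA. GAS letters were in Ifng, Il12rb2 and Nkg7 and in 7.02% of all 32851 promoters, and RUNX letters in Gzma, Gzmb and Ncr1 and in 4.4%. T-box letters were in Nkg7 only (3.33% of all promoters) and AP-1 letters in Gzmb only (6.75%). The promoters of Ifng and Il12rb2, which were high in LPS lungs alone, of Gzmb, high in both treated groups, and of Ncr1, low in LPS lungs, are shown 5′ to 3′ along the gene, with every match in capitals. Each occurs once in GRCm39, at chr10:118276701-118276950 on the plus strand for Ifng, chr6:67353173-67353422 on the minus strand for Il12rb2, chr14:56499792-56500041 on the minus strand for Gzmb and chr7:4340464-4340713 on the plus strand for Ncr1. A match is a description of letters and not a bound site.
Ifng: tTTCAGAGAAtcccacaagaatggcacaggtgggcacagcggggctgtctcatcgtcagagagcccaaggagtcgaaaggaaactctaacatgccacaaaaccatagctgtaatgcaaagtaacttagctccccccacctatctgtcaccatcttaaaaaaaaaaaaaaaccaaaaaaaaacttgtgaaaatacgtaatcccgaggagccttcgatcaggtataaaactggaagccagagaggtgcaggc
Il12rb2: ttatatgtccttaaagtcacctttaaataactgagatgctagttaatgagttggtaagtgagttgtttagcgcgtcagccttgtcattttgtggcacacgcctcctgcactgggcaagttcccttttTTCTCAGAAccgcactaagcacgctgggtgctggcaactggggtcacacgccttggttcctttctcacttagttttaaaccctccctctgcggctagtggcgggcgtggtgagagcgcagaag
Gzmb: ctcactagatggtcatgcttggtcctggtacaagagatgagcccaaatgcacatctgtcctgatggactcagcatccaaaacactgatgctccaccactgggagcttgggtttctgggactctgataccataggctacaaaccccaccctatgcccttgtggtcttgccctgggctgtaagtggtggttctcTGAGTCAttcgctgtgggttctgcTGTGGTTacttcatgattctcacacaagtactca
Ncr1: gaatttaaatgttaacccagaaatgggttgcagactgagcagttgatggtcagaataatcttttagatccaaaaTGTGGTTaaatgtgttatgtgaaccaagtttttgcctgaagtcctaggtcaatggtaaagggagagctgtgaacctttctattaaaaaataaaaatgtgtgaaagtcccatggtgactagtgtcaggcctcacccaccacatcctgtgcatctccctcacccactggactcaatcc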

How the data were processed

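The authors deposited raw counts per Ensembl gene for each lung. According to the submitters' processing notes, reads were trimmed with Trim Galore, checked with FastQC 0.11.9, aligned to GRCm39 with HISAT2 2.2.1 and counted with featureCounts 2.0.1. Strand setting and handling of multi-mapping reads are not given in the sources used here. Identifiers were named from GENCODE M39 (54749 of 55416 matched). Counts of the 8 libraries were fitted together with edgeR 4.0.16 in R 4.3.3, with TMM scaling, filterByExpr by group and quasi-likelihood tests on 5 residual degrees of freedom. DESeq2 1.42.0, other scalings, filters and call rules, and fits without single libraries were the alternatives. The scripts were tested on simulated data. Members and lists were chosen with earlier results of these data known. Named genes were all members and, from the rest, genes chosen among each list's most abundant gene, its highest and lowest called genes per comparison, any gene of a list of 20 or fewer given among its members, and the 3 genes most like each member, not all of which are given. Klrc1, Klra8, Rab27a, Stx11, Stxbp2, S1pr5, Il12b, Sftpb, Sftpc, Cd3d, Cd3e, Cd3g and Cd8a fall outside this rule and were named after their values were seen. So were Il12a, Il2rb, Il15ra, Ccl3 and Ccl4, for having been picked by the study, and Serbp1, Gm49751, Gm44511, Gm33460 and Gm33408, for exon bases shared with members. Of 28 pairs of libraries, 0 were identical.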

Additional observations from a re-analysis of the deposited data

How the results depend on the processing

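No paired analysis was possible because each pair of groups shares at most 1 mouse number. Members called higher in LPS than control lungs numbered 3 with at least 10 counts required in every library, which removed Ifng and Il12rb2, and 4 to 7 with single mice left out, Ifng not being tested without LPS mouse 1 or 6. Members called lower there numbered 0 with that filter, which removed Klrd1 and Ncr1, 1 with only the 2 groups in the fit, where Ncr1 was not tested, 1 with LPS mouse 1 alone, and 1 to 2 with single mice left out, as Ncr1 lost its call without control mouse 4 or any 1 LPS mouse. Members called higher in dual-treated than control lungs numbered 5 with no filter on low counts, 6 by fold change over 2 with an unadjusted p, and 3 to 4 with single mice left out. Members higher in dual-treated than LPS lungs numbered 5 with library size only, which added Gzma and Prf1, 1 with at least 10 counts in every library, 1 with LPS mouse 1 alone, and 2 to 4 with single mice left out. Members lower there numbered 0 with that filter and 1 to 2 with single mice left out, Ifng not being tested without LPS mouse 1 or 6. Where no filter is named, the cause was not tested.

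The median of all tested genes shifted to -0.29 (LPS minus control) and 0.38 (dual-treated minus LPS) on the log2 scale with library size only, to -0.10 and 0.14 with upper quartile, and to 0.13 for dual-treated minus LPS with LPS mouse 1 alone. Of all called genes, 45.6% were higher in LPS than control lungs with TMM and 32.5% with library size only, and 58.5% and 74.7% were higher in dual-treated than LPS lungs. Calls among all genes moved with the setting as well. With library size only, 5118 of 18560 tested genes were higher in dual-treated than LPS lungs, against 3666 with TMM. With at least 10 counts in every library, 2184 of 14425 were higher and 2749 lower in LPS than control lungs. With no filter, 1181 of 32006 were higher in dual-treated than control lungs.

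Of the members' log2 fold changes under alternatives that still tested the gene, 411 kept their direction and their side of the call. Another 9 lost and 18 gained a call, and 17 changed sign, each of an uncalled difference. Calls lost because a gene was no longer tested are not among the 9. Such losses included Ifng, Il12rb2, Klrd1 and Ncr1 with at least 10 counts in every library. Ifng also dropped out without LPS mouse 1 or 6. Klrb1c in LPS minus control, -0.15 with all libraries and TMM, was between -0.55 and 0.18 with single mice left out. Ifng in dual-treated minus control, 0.22 with all libraries and TMM, was between -3.99, where the remaining dual-treated mouse has a count of 0, and 1.13 with single mice left out. Klrd1 in dual-treated minus control, -0.13 with all libraries and TMM, was between -0.73 and 0.25 with single mice left out. Il12rb2 in dual-treated minus control, -0.0019 with all libraries and TMM, was 0.034 with library size only and between -0.97 and 0.52 with single mice left out. Gzmb in dual-treated minus LPS, -0.05 with all libraries and TMM, was 0.30 with library size only, 0.040 with upper quartile, -0.59 with LPS mouse 1 alone and between -0.40 and 0.31 with single mice left out. Nkg7 in dual-treated minus LPS, 0.17 with all libraries and TMM, was -0.14 with LPS mouse 1 alone and between -0.96 and 0.76 with single mice left out. Eomes in dual-treated minus LPS, -0.66 with all libraries and TMM, was -1.58 with LPS mouse 1 alone and between -1.18 and 0.17 with single mice left out. Groups of 2 and 3 mice, and counts under 10 in some libraries for Ifng, Il12rb2, Ncr1, Klrd1 and Eomes, limit what can be resolved.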
